A study of Arabidopsis with 26 samples.

Results

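SWI3A, SWI3C and SWI3D are paralogous core subunits of Arabidopsis SWI/SNF complexes, which remodel chromatin, and their binding sites were compared through 5 of the 26 chromatin immunoprecipitation (ChIP-seq) peak lists of the study. The 5 lists were taken by the line that the name of the deposited list states, because sample label and list name give different lines for 19 of the 26 libraries. SWI3A-GFP swi3a-3 had 1 list, whose sample is labelled SWP73B-GFP swp73b-1. SWI3C-GFP had 1 list, labelled BCL7A-GFP bcl7a-1, and its name states no mutant allele. SWI3D-GFP swi3d-1 had 3 lists: replicate 1 carries that same label, replicate 2 is labelled SYD-GFP syd-5 brm-1 and replicate 3 is labelled MINU2-GFP minu2-1. Every result below holds only as far as the list names do. Read by label instead, different libraries enter and the order of similarity changes, as given beside the first comparison.

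Each line carries its subunit as a fusion to GFP, green fluorescent protein, which was precipitated with anti-GFP from whole 14-day-old seedlings, so a list averages over all cell types of the plant. For SWI3A and SWI3D the list name also gives a mutant allele of the tagged gene. The labels give no promoter for the fusions, and no list from an untagged plant was used here. The lists hold no read numbers, so depth is unknown, and the labels speak of biological replicates without saying how they were kept apart, so the spread between SWI3D libraries may be partly technical.

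SWI3 proteins are scaffold subunits with SWIRM and SANT domains, related to yeast Swi3, that hold the complex together around its ATPase. In Arabidopsis, biochemical work places SWI3C with the ATPase BRM, SWI3D with SYD, and SWI3A with the MINU ATPases and the core subunit BSH. Loss of SWI3C or SWI3D gives dwarf plants with altered flowers and leaves, whereas loss of SWI3A stops the embryo.

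The lists held 19263 peaks for SWI3A, 12242 for SWI3C and 13030, 16434 and 16629 for SWI3D replicates 1 to 3 on chromosomes 1 to 5. The 12242 peaks of highest −log10 q were taken from each, so the whole SWI3C list was used but 63.6% of the SWI3A list. The last SWI3A peak taken had a −log10 q of 15.3972 and the first left out 15.3965; the last SWI3C peak had 1.34. In SWI3D replicate 1 both values were 3.48, in replicate 2 they were 10.257 and 10.255, and in replicate 3 they were 11.220 and 11.217. The same number of peaks thus reaches into weaker peaks for SWI3C and SWI3D replicate 1 than for the others. Median widths of the peaks used were 690 bp for SWI3A, 512 bp for SWI3C and 537, 671 and 677 bp for SWI3D. SWI3A and SWI3C have 1 library each, so no difference between paralogues could be tested, and the 3 SWI3D libraries are the only measure of how far lists of 1 line differ.

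SWI3C and SWI3D largely occupied the same sites, whereas SWI3A stood apart from both. The percentage of peaks of one list overlapped by at least 1 bp in the other, averaged over both directions, was 79.3% between SWI3C and SWI3D (78.3% to 79.9% over the 3 SWI3D libraries). It was 54.0% between SWI3A and SWI3C and 46.7% between SWI3A and SWI3D (46.1% to 47.0%). Between SWI3D libraries it was 87.6% (84.8% to 92.7%), so each pair of paralogues shared fewer peaks than any pair of SWI3D libraries. The base-pair Jaccard index, the bases covered by both lists over those covered by either, followed the same order: 0.293 for SWI3A with SWI3C, 0.228 ± 0.015 for SWI3A with SWI3D and 0.508 ± 0.013 for SWI3C with SWI3D (SD over the 3 SWI3D libraries), against 0.681 ± 0.10 between SWI3D libraries (SD over 3 pairs). With the lines as labelled, where only 4383 peaks per list could be taken, SWI3A and SWI3C shared 75.1%. SWI3C and SWI3D then shared 61.7% and SWI3A and SWI3D 56.6%, so the order was another one. The 3 libraries labelled SWI3D-GFP swi3d-1 shared 47.5% of their peaks with each other. For a like number, 4000 peaks by list name, the 3 SWI3D libraries shared 83.7%. At that number SWI3C and SWI3D shared 71.7%, SWI3A and SWI3C 17.3% and SWI3A and SWI3D 12.9%.

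Few of the strongest SWI3A peaks overlapped the strongest peaks of SWI3C or SWI3D. Of the 1000 strongest peaks of each list, 7.50% overlapped between SWI3A and SWI3C and 4.90% between SWI3A and SWI3D (4.50% to 5.40%). Between SWI3C and SWI3D it was 58.3% (57.6% to 59.0%), and between SWI3D libraries 76.1% (69.7% to 88.8%). With more peaks the SWI3A pairs rose steeply, to 17.3% and 12.9% at 4000 peaks and 35.1% and 28.7% at 8000. The SWI3C pair with SWI3D rose more slowly, to 71.7% and 77.5%. Few peaks thus stood at the top of both the SWI3A list and another list.

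**Figure D1:**
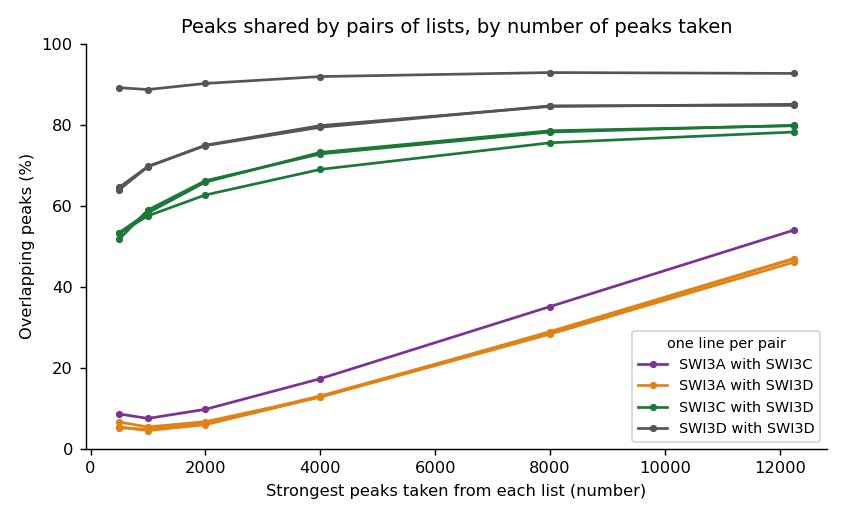
Percentage of overlapping peaks (vertical axis) against the number of strongest peaks taken from each list (horizontal axis), with one line for each of the 10 pairs of lists, coloured by the paralogues compared. SWI3A lies below the other pairs throughout, with 7.50% of 1000 peaks shared with SWI3C, against 58.3% between SWI3C and SWI3D; the highest line joins SWI3D replicates 2 and 3.

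Peak strength ranked alike for SWI3C and SWI3D and not for SWI3A. Over peaks that overlapped one to one, the Spearman coefficient of −log10 q was 0.68 between SWI3C and SWI3D (0.65 to 0.70 over the 3 SWI3D libraries, 8753 to 8811 peaks) and 0.86 between SWI3D libraries (0.81 to 0.95, 9729 to 11017 peaks). It was −0.10 between SWI3A and SWI3C (6354 peaks) and −0.14 between SWI3A and SWI3D (−0.15 to −0.12, 5330 to 5472 peaks). These coefficients describe peaks of the same few libraries and carry no test; those with SWI3A changed sign in some settings, as given in the closing section. When each list was divided into 10 groups by strength, 99.7% of the strongest group of SWI3C peaks overlapped a SWI3D region and 48.7% of the weakest. In the reverse direction, 99.9% to 100% of the strongest group of the SWI3D peaks overlapped SWI3C, and 44.9% to 48.3% of the weakest. Disagreement between SWI3C and SWI3D therefore lay among their weak peaks. For SWI3A the 2 directions differed. Of its own strongest group 53.7% overlapped SWI3C and of its weakest 53.8%, and against SWI3D the shares were 38.8% and 51.8%. Of the strongest group of SWI3C peaks 72.9% overlapped SWI3A and of the weakest 49.3%; for the SWI3D libraries these shares were 60.6% to 61.8% and 41.6% to 44.4%. Strong SWI3C and SWI3D peaks thus met a SWI3A peak more often than weak ones did, whereas strong SWI3A peaks did not meet the others more often than weak ones.

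The peaks of the 5 lists were joined into 20096 regions, and a region was given to SWI3D when at least 2 of its 3 libraries had a peak there. The largest classes were all 3 paralogues together, with 5166 regions (25.7%), SWI3A alone, with 5101 (25.4%), and SWI3C with SWI3D, with 4200 (20.9%). SWI3D alone had 1943 regions (9.67%), SWI3A with SWI3C 1357 (6.75%), SWI3C alone 783 (3.90%) and SWI3A with SWI3D 486 (2.42%). The other 1060 regions (5.27%) held a peak of a single SWI3D library and nothing else. With each SWI3D library used by itself, the mean sizes were 5084 ± 20 for SWI3A alone, 4275 ± 32 for SWI3C with SWI3D, 5083 ± 99 for all 3, and 874 ± 83 for SWI3C alone (SD, n = 3). The order of the large classes in these lists thus did not turn on which SWI3D library was used, except that SWI3A alone and all 3 together were of like size.

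**Figure D2:**
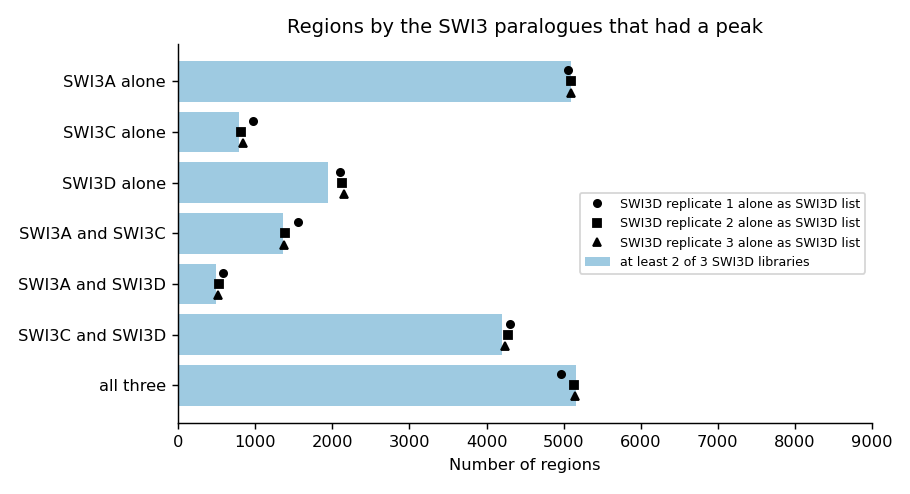
Number of regions (horizontal axis) in each class of paralogues (vertical axis); bars give SWI3D as a peak in at least 2 of 3 libraries, and symbols give the count with each SWI3D library used by itself. SWI3A alone (5101), SWI3C with SWI3D (4200) and all 3 (5166) exceed the other classes with every SWI3D library.

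Seen from each paralogue, SWI3A was the one most often by itself. Of its 12110 regions, 42.1% (Wilson 95% interval 41.2% to 43.0%) were of SWI3A alone and 42.7% held both others. Of the 11506 SWI3C regions, 6.81% (6.36% to 7.28%) were of SWI3C alone and 36.5% were shared with SWI3D without SWI3A. Of the 11795 SWI3D regions, 16.5% (15.8% to 17.2%) were of SWI3D alone and 35.6% were shared with SWI3C without SWI3A. As SWI3D needed 2 of 3 libraries, 436 of the SWI3A alone and 298 of the SWI3C alone regions still held a peak of 1 SWI3D library. The intervals cover counting error only, not the spread between libraries.

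A class also depends on where each list ends. A weaker SWI3A peak, deposited but below the number taken, lay in 64.5% of the SWI3C with SWI3D regions and in 61.4% of the SWI3C alone regions. It lay in 22.2% of the SWI3D alone regions. Weaker SWI3D peaks lay in 51.6% of the SWI3C alone regions and in 52.2% of the SWI3A with SWI3C regions, but in 14.5% of the SWI3A alone regions. With all deposited peaks, SWI3C with SWI3D shrank to 1637 regions and SWI3C alone to 149, while all 3 together grew to 8835. Absence of SWI3A or SWI3C from a class therefore means that no peak was among those taken. Absence of SWI3D means that fewer than 2 of its 3 libraries had such a peak. A taken peak of 1 SWI3D library lay in 436 of the 5101 SWI3A alone regions. The same held for 298 of the 783 SWI3C alone regions and 438 of the 1357 SWI3A with SWI3C regions. SWI3A alone was the class least filled in by weaker SWI3D peaks. No weaker SWI3C peaks exist to be looked for, since that list was used whole.

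SWI3A peaks kept a middle rank where SWI3A was alone, whereas SWI3C and SWI3D peaks were weak in their single classes. On a scale where 100 is the strongest peak of a list, SWI3A peaks had a median percentile of 52.5 in SWI3A alone, 60.7 in SWI3A with SWI3C and 44.8 in all 3 together. SWI3C peaks had 17.0 in SWI3C alone, 22.0 with SWI3A, 51.9 with SWI3D and 63.7 in all 3. SWI3D peaks had 26.3 to 31.3 in SWI3D alone, 20.8 to 22.2 with SWI3A, 60.5 to 60.8 with SWI3C and 59.4 to 60.0 in all 3. Of the strongest 10% of the peaks of each list, SWI3A alone held 525 SWI3A peaks, whereas SWI3C alone held 2 SWI3C peaks and SWI3D alone held 0 or 1 per library. The 525 were 10.3% of the SWI3A peaks of that class, close to the 10% over the whole list. In SWI3C alone the share was 0.255%, and in SWI3D alone at most 0.0742%. Within the regions of all 3, SWI3A ranked lower than SWI3C by a median of 15.3 percentile points. SWI3C was ahead by more than 50 points in 1088 regions (21.1%) and SWI3A in 322 (6.23%).

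Where all 3 paralogues met, SWI3C and SWI3D summits still lay closer together than either did to SWI3A. In the 3875 regions with exactly 1 peak of each list, the median distance between summits was 66 bp for SWI3A with SWI3C and 83 to 92 bp for SWI3A with SWI3D. It was 47 to 56 bp for SWI3C with SWI3D and 22 to 36 bp between SWI3D libraries. Summits lay more than 200 bp apart in 21.7% of these regions for SWI3A with SWI3C and 26.3% to 27.8% for SWI3A with SWI3D, against 10.3% to 12.4% for SWI3C with SWI3D and 2.61% to 5.65% between SWI3D libraries. No range between paralogues overlapped that between SWI3D libraries.

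**Figure D3:**
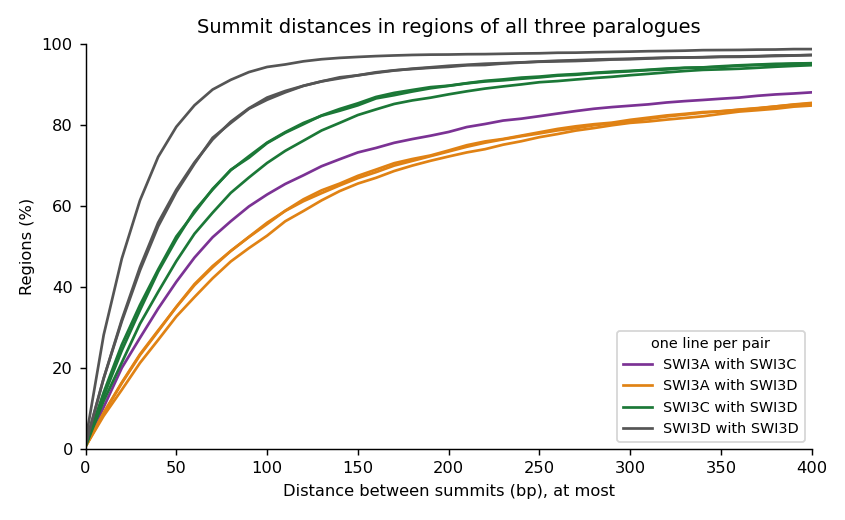
Cumulative percentage of the 3875 regions of all 3 paralogues with 1 peak per list (vertical axis) whose summits lie at most a given distance apart (horizontal axis, bp), one line per pair of lists. The SWI3D pairs rise fastest, then SWI3C with SWI3D, then SWI3A with SWI3C, and SWI3A with SWI3D last, with medians of 22 to 36, 47 to 56, 66 and 83 to 92 bp.

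The paralogues also differed in where they sat against genes. Protein-coding genes were taken from the RefSeq table of assembly TAIR10.1, which gives spans without strand, so an edge may be the start or the end of a gene. Summits at most 100 bp from a gene edge made up 50.5% of SWI3A peaks, 30.2% of SWI3C peaks and 29.0%, 31.9% and 31.7% of SWI3D peaks, where 8.47% of all base positions lie that close. Summits inside a gene span made up 74.7% for SWI3A, 53.0% for SWI3C and 33.4%, 36.9% and 37.3% for SWI3D, against 54.1% of base positions. SWI3A thus had the largest shares at gene edges and inside genes. SWI3C fell within the SWI3D range at gene edges and close to the share of base positions inside genes, and SWI3D lay mostly outside gene spans. Summits more than 1000 bp from any edge were 3.95% for SWI3A, 15.1% for SWI3C and 19.6% to 20.0% for SWI3D. Among the 1000 strongest peaks the shares near an edge were 69.7% for SWI3A, 26.6% for SWI3C and 20.1% to 23.4% for SWI3D.

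The contrast between SWI3A and SWI3D was wide in their single classes. SWI3A alone had its summits a median of 81 bp from an edge, 78.7% of them inside a gene. SWI3D alone had medians of 712 to 768 bp, with 14.6% to 18.8% inside a gene. In SWI3C alone the median was 279 bp and 68.1% were inside a gene, and in SWI3C with SWI3D the SWI3C summits had a median of 450 bp with 36.9% inside. In the 3875 regions of all 3 with 1 peak of each list, 68.7% of SWI3A, 57.7% of SWI3C and 44.0% to 46.7% of SWI3D summits lay inside a gene. The gap between SWI3A and SWI3D there was wider than the range of the SWI3D libraries. The contrast at gene edges did not hold in these regions: the SWI3D summit was the nearer one to an edge in 52.9% to 55.1% of them and the SWI3A summit in 44.3% to 46.3%. Over all peaks in regions of all 3, 42.1% of SWI3A and 41.3% to 45.0% of SWI3D summits lay at most 100 bp from an edge.

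**Figure D4:**
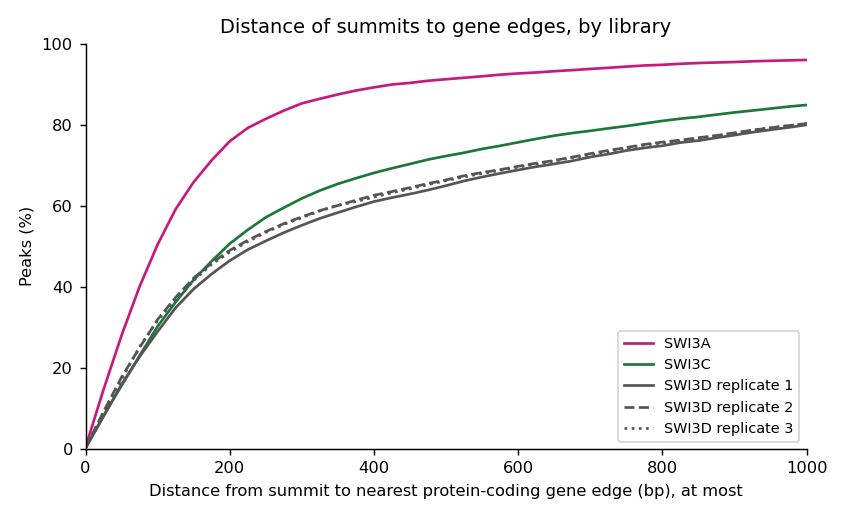
Cumulative percentage of the 12242 peaks of each list (vertical axis) whose summit lies at most a given distance from the nearest edge of a protein-coding gene (horizontal axis, bp), one line per library. At 100 bp the SWI3A line stands at 50.5%, SWI3C at 30.2% and the 3 SWI3D lines between 29.0% and 31.9%.

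The ATPase lists, which had no part in making the classes, were spread unevenly over them. They were BRM-GFP brm-1 (2 libraries), SYD-GFP syd-5 (4) and MINU2-GFP minu2-1 (2), by list name and at the same number of strongest peaks. The sample labels name the same lines for both BRM lists and for SYD replicates 3 and 4. SYD replicates 1 and 2 are labelled BSH-GFP bsh and SWI3C-GFP, and both MINU2 lists are labelled SYD-GFP syd-5. Over all 20096 regions a BRM peak was found in 63.3% and 62.9%, a SYD peak in 63.1%, 64.9%, 60.6% and 59.8%, and a MINU2 peak in 59.0% and 59.3%. In SWI3A alone a MINU2 peak was found in 82.4% ± 1.2 (SD, n = 2), BRM in 24.3% ± 1.3 (SD, n = 2) and SYD in 12.7% ± 1.7 (SD, n = 4). In SWI3C alone BRM led with 71.1% ± 0.090, before SYD with 51.5% ± 3.9 and MINU2 with 10.3% ± 0.45. By library that BRM share was 71.1% and 71.0%, against the 63.3% and 62.9% over all regions. In SWI3D alone SYD led with 65.3% ± 5.3, before BRM with 48.6% ± 1.7 and MINU2 with 5.04% in both libraries. That SYD share was close to the one over all regions, library by library 66.9%, 71.8%, 62.7% and 59.8% against the 63.1%, 64.9%, 60.6% and 59.8% above, while BRM and MINU2 lay below theirs. The leading ATPase thus differed among the 3 single classes, and in each the ranges of the libraries did not overlap. With 2 libraries against 2 or 4, an exact permutation test cannot reach 0.05, and none was run.

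In the shared classes MINU2 was high wherever SWI3A was a partner. In SWI3C with SWI3D, BRM was found in 91.2% ± 0.13 and SYD in 94.8% ± 1.2, but MINU2 in 24.1% ± 1.1. SWI3A with SWI3C had MINU2 in 89.6% ± 0.052, BRM in 66.4% ± 1.3 and SYD in 43.9% ± 3.9. SWI3A with SWI3D had MINU2 in 87.2% ± 0.29, SYD in 66.3% ± 6.1 and BRM in 47.5% ± 0.29 (SD, n = 2 for BRM and MINU2 and 4 for SYD). So BRM exceeded SYD where SWI3C was the partner of SWI3A, and SYD exceeded BRM where SWI3D was, but the higher of the 2 was close to its share over all regions in both classes. In all 3 together the shares were 89.6% ± 0.48 for BRM, 93.6% ± 1.4 for SYD and 92.8% ± 0.71 for MINU2. The classes also differed in width, and a wider region can meet a peak of any list more easily. Median widths were 1044 bp for all 3, 876 bp for SWI3C with SWI3D, 786.5 bp for SWI3A with SWI3D and 751 bp for SWI3A with SWI3C. They were 617 bp for SWI3A alone, 542 bp for SWI3D alone and 424 bp for SWI3C alone. The part of width in these shares was not tested.

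**Figure D5:**
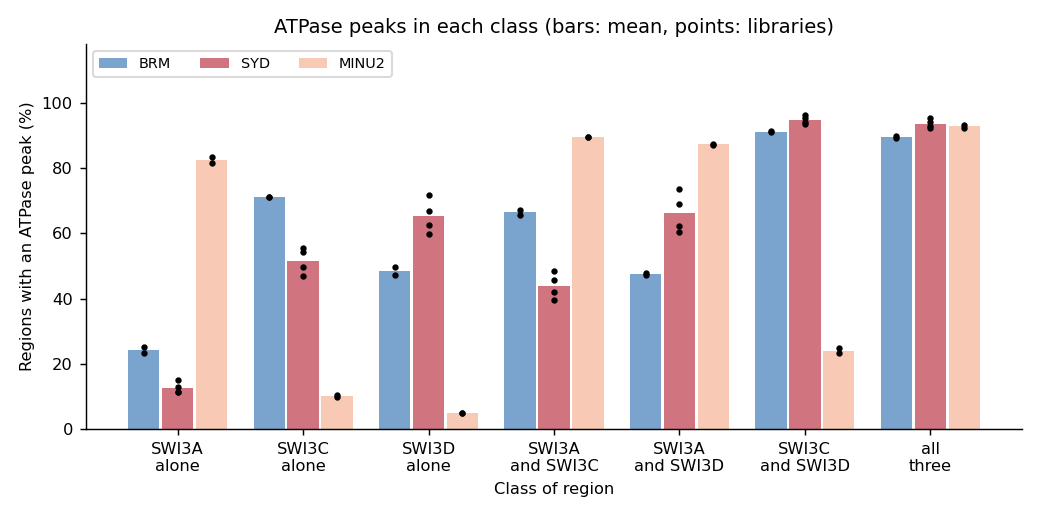
Percentage of regions with a BRM, SYD or MINU2 peak (vertical axis) in each class of SWI3 paralogues (horizontal axis); bars are means over libraries and points are single libraries. MINU2 is high in every class with SWI3A (82.4% to 92.8%) and at most 24.1% in the others.

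Among the other subunits, with 1 list each, BSH was common and SWP73A scarce in SWI3A alone. In all 3 together both were common, with BSH in 93.5% and SWP73A in 79.4%. SWI3A with SWI3C had BSH in 89.8% and SWP73A in 31.0%. The sample labels name other lines for all of these lists. BSH is labelled SYD-GFP syd-5 brm-1, SWP73A BCL7B-GFP bcl7b-1 and SWP73B SWI3D-GFP swi3d-1. Both BCL7 lists are labelled SWI3D-GFP swi3d-1 syd-5. BSH, the SNF5-type core subunit, had a peak in 59.7% of all regions, in 82.4% of SWI3A alone, 10.7% of SWI3C alone, 5.15% of SWI3D alone and 25.8% of SWI3C with SWI3D. SWP73A, one of the pair of SWP73 subunits, had peaks in 40.8% of all regions, 3.04% of SWI3A alone, 36.4% of SWI3C alone, 12.2% of SWI3D alone and 68.3% of SWI3C with SWI3D; its list has only 8960 peaks. SWP73B had peaks in 60.2% of all regions, 62.2% of SWI3A alone and 53.1% of SWI3C with SWI3D. In SWI3C alone and SWI3D alone SWP73B had 9.71% and 9.37%. BCL7A had 67.1% of all regions, 55.6% of SWI3A alone and 75.4% of SWI3C with SWI3D, and BCL7B 69.9%, 52.1% and 84.6%. In SWI3C alone and SWI3D alone BCL7A had 38.6% and 32.1%, and BCL7B 54.9% and 37.2%. All 3 together held SWP73B in 94.8%, BCL7A in 94.6% and BCL7B in 95.5%. A further split runs through these lists, and its origin is not given in the sources used here: those of BRM, SYD and the BCL7 subunits have no peaks on the organelle genomes, while those of the SWI3 paralogues, MINU2, BSH and both SWP73 subunits do. For the comparison of BRM or SYD with MINU2 this split and the ATPase cannot be told apart. Within the lists with organelle peaks, SWP73A was scarce (3.04%) and BSH common (82.4%) in SWI3A alone.

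The strongest regions of each class were looked up one by one, and not all of them followed the shares of their class. Positions are those of the deposited lists, the fold enrichment is the authors' own value for the peak, and genes are the nearest protein-coding ones. In SWI3A alone the strongest were inside AT4G23330 (chromosome 4, 12191750 to 12192584, fold enrichment 19.9), AT1G30910 (chromosome 1, 11000607 to 11001285, 17.6) and AT1G55880 (chromosome 1, 20900816 to 20901769, 14.2). All 3 had MINU2 peaks in 2 of 2 lists and SYD peaks in 0 of 4, and BRM peaks were in 1, 2 and 0 of 2 lists. In SWI3D alone they were chromosome 1, 22319155 to 22319784, lying 2395 bp from AT1G60590, chromosome 2, 9819537 to 9820149, lying 2194 bp from AT2G23067, and chromosome 3, 19815479 to 19816516, lying 126 bp from LOG4, a cytokinin-activating enzyme. Their fold enrichments were 5.12 to 7.96 over the 3 libraries, and all 3 had SYD peaks in 4 of 4 lists; BRM peaks were in 1, 2 and 2 of 2 lists and MINU2 peaks in 0, 0 and 1 of 2.

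SWI3C with SWI3D was strongest on chromosome 3, 9737302 to 9737929, 5997 bp from AT3G26539, and then on chromosome 1, 8598228 to 8599110, 1689 bp from AT1G24265. Next came a region 577 bp from FLA9, which encodes a fasciclin-like arabinogalactan protein (chromosome 1, 983175 to 984734, fold enrichment 5.80 for SWI3C and 8.99, 10.4 and 10.4 for SWI3D). All 3 had BRM, SYD and also MINU2 peaks in every list, although MINU2 was found in 24.1% of the class. SWI3A with SWI3C was strongest inside AT2G33320 (chromosome 2, 14119406 to 14120213, fold enrichment 6.98 and 3.48), beside the SWI3C gene itself (chromosome 1, 7623488 to 7624975, 5.69 and 3.45) and in PPX2, a protein phosphatase catalytic subunit gene (chromosome 5, 22416202 to 22417012, 16.0 and 3.43). MINU2 peaks were in 2 of 2 lists at all 3, BRM in 2, 0 and 2 of 2 and SYD in 4, 0 and 2 of 4. SWI3A with SWI3D was strongest 241 bp from AT3G59020, 361 bp from MED6, a Mediator subunit gene, and inside APC6, which encodes a subunit of the anaphase-promoting complex. Their SWI3A fold enrichments were 4.93, 7.66 and 8.88; SYD and MINU2 peaks were in every list, and BRM in 2, 2 and 0 of 2.

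In SWI3C alone and in all 3 together the same rule led mostly to regions far from genes. The 3 strongest SWI3C alone regions lay on chromosome 3 at 13814696 to 13814970, 13816127 to 13816402 and 14180344 to 14180659, at least 14907 bp from a protein-coding gene, and had no ATPase peak. Chosen after these values were seen, the strongest with a gene at most 1000 bp away lay in AT5G19090 (chromosome 5, 6389215 to 6389654, fold enrichment 2.71), in WRKY27, a transcription factor gene (chromosome 5, 21410774 to 21411148, 3.18), and in AT4G11300 (chromosome 4, 6873014 to 6873694, 3.34). All 3 of these had BRM peaks in both lists and no MINU2 peak, and SYD peaks in 4, 4 and 1 of 4 lists. For all 3 paralogues the strongest lay on chromosome 5 at 11733458 to 11734086 and 11723364 to 11723804, and on chromosome 2 at 3618922 to 3620062, with fold enrichments of 3.73 to 6.93, MINU2 peaks in both lists, SYD peaks in 0 to 2 of 4 and no BRM peak. Regions left out because they recur among the strongest peaks of many lines lay nearby. These were chromosome 5, 11732039 to 11732659, and chromosome 2, 3605695 to 3607826 and 3625642 to 3627732. Of those kept, the chromosome 5 regions lay 97023 and 87016 bp from a gene, and the chromosome 2 region lay inside AT2G08986. With a gene at most 1000 bp away, that region and one inside AT1G40104 ranked first, neither with a BRM peak. The strongest found with the same later condition that also had peaks in all ATPase lists lay 19 bp from SAUL1, an E3 ubiquitin ligase gene (chromosome 1, 7216309 to 7217476), with fold enrichments of 10.7 for SWI3A, 8.54 for SWI3C and 8.80, 15.7 and 15.8 for SWI3D.

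The SWI3C alone class was also uneven along the genome. Chromosome 2 held 23.9% of its regions, against 15.7% of all regions, and between 3 and 4 Mb of that chromosome 59 of 96 regions were of SWI3C alone. Any list with organelle peaks had 27 to 98 peaks in that stretch (median 61.5, 12 lists), and those without had 1 to 10 (median 5, 14 lists). All 5 SWI3 lists are of the first kind; the part of the organelle peaks in this class was not tested. Without that stretch, a BRM peak was found in 76.3% of SWI3C alone regions.

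The 5 regions of all 3 paralogues with the largest rank difference between SWI3A and SWI3C were all stronger for SWI3C. They lay by EXO70H7, an exocyst subunit gene, TPS7, of the trehalose phosphate synthase family, ERD15, a drought-induced gene, AT1G58602 and, 2599 bp away, AP1, the floral meristem identity gene. SWI3A stood between the 0.0613 and the 1.34 percentile there and SWI3C between 97.8 and 99.3. The SWI3D percentiles were 84.3 to 99.8, with SWI3C rather than with SWI3A in all 5.

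Each tagged gene can be looked up in the lists, all deposited peaks included, though the lines carry an added copy of the tagged gene and peaks there cannot be told apart from those of that copy. Over the SWI3A gene the SWI3A list had a peak at the 99.96 percentile, whereas SWI3C stood at 9.31 and the SWI3D libraries at 31.6, 36.9 and 35.4. Over the SWI3C gene SWI3A stood at 89.3 and SWI3C at 82.8, and the 3 SWI3D lists had 0 peaks. Over the SWI3D gene SWI3A stood at 87.7, SWI3C at 12.1 and SWI3D at 62.4, 71.9 and 69.2. SWI3A thus had peaks high in its list over all 3 of these genes. The percentiles of this paragraph are over all deposited peaks, so those of SWI3A and SWI3D are higher than on the scale used elsewhere. Among the 12242 peaks taken, SWI3A stood at 99.9 at the SWI3A gene, 83.2 at the SWI3C gene and 80.7 at the SWI3D gene.

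Genes of 7 lists, chosen for processes in which these complexes are known to act, were then sorted by the paralogues whose summits they held. A gene was counted where it held a summit or was the nearest gene within 1000 bp, and for SWI3D in at least 2 of 3 libraries. Of 27444 protein-coding genes, 57.7% had a summit of any paralogue, 41.4% of SWI3A, 34.2% of SWI3C and 32.3% of SWI3D, and 42.3% had none. By the summits they held, 17.7% fell to SWI3A alone, 2.57% to SWI3C alone, 3.58% to SWI3D alone, 5.18% to SWI3A with SWI3C, 2.3% to SWI3A with SWI3D, 10.2% to SWI3C with SWI3D and 16.2% to all 3. Of the 99 genes listed, 78 had a summit: 30 of SWI3C with SWI3D, 23 of all 3 and 11 of SWI3A alone. A summit assigned to a gene does not mean that other paralogues had no peak there, since their summits may be nearest to a neighbour. In 64 of the 78 genes the regions around the summits held the same paralogues as the summits, and in 14 they held more. By regions, 33 genes were of all 3, 27 of SWI3C with SWI3D, 8 of SWI3A alone, 2 of SWI3D alone and 0 of SWI3C alone. The shares over all genes given above are by summits, so counts by regions have no background to be set against. These lists were picked with results of the data known, and no test was made on them.

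Genes of the SWI/SNF subunits themselves were mostly SWI3A sites. Of 19, 15 had a SWI3A summit, 9 a SWI3C and 8 a SWI3D summit. SWI3A alone was found at MINU1, MINU2 and SWI3B, by summits and by regions. SWP73A and BRD2, a bromodomain subunit gene, had SWI3A summits only, but the region at SWP73A also held SWI3D peaks and that at BRD2 peaks of all 3. SWI3A with SWI3D was found at SYD, and by summits at ARP4, an actin-related protein gene whose region held all 3. SWI3A with SWI3C was found at SWP73B and BCL7A. BSH, the gene of the core subunit that shared SWI3A sites, was bound by all 3 with SWI3A at the 98.1 percentile, SWI3C at 4.39 and SWI3D at 70.9, 60.0 and 40.5. BRM went the other way, with SWI3A at 63.1, SWI3C at 92.6 and SWI3D at 91.1 to 93.9. The SWI3C gene had a SWI3C summit only, in a region that also held a SWI3A peak.

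Auxin genes were mostly sites of SWI3C with SWI3D. Summits of both and none of SWI3A were found at 8 of 15: PIN2, PIN3, PIN4 and PIN7, which encode auxin efflux carriers, and IAA1, IAA2, IAA3 and IAA19, which encode auxin-responsive repressors. The region at IAA19 also held a SWI3A peak, and those at the other 7 did not. At PIN7 SWI3C stood at the 96.8 percentile and SWI3D at 96.1, 98.3 and 97.9. ARF7, an auxin response factor gene, was of SWI3A alone, at the 32.6 percentile. ARF19 was of all 3, with SWI3A at 12.8, SWI3C at 90.1 and SWI3D at 92.0 to 94.3. At both of these response factor genes the SWI3A summit was thus in the weaker part of the SWI3A list.

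All 17 light and clock genes had a summit, 16 of them of SWI3C, 13 of SWI3D and 8 of SWI3A, and the regions at 13 of them held all 3 paralogues. That count by regions has no share over all genes beside it. HY5, the transcription factor gene of light-grown development, and the clock repressor genes PRR7 and PRR5 had no SWI3A summit and held a SWI3C summit at the 88.8, 82.4 and 5.74 percentile (at PRR7 also a summit in 1 SWI3D library), but peaks of SWI3A and SWI3D lay in the same regions. SWI3C with SWI3D was found by summits and by regions at PIF1 and PIF3, which encode phytochrome-interacting factors, and at ELF4, a clock gene. PIF5 and PRR9 held summits of those paralogues in regions of all 3. LUX, a gene of the evening complex, was of SWI3D alone, in replicates 2 and 3 at the 31.9 and 12.1 percentile. CCA1, a morning clock gene, had summits of SWI3A and SWI3C, and of 1 SWI3D library, in a region of all 3. The other 7, PHYB among them, had summits of all 3.

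In the flowering list 12 of 16 genes had a summit. SWI3C with SWI3D was found at SOC1, SVP, SEP3 and FUL, which encode MADS-box factors, and at LFY, the floral meristem regulator. SWI3A alone was found at FLM, a MADS-box repressor gene, at the 38.6 percentile, with a weak summit in 1 SWI3D library. CO, the photoperiod activator gene, had a SWI3A summit at 77.9 in a region that also held a SWI3C peak. PI, a petal and stamen identity gene, held SWI3D summits at the 92.5 and 94.3 percentile in replicates 2 and 3, in a region that also held a SWI3C peak. FLC, AP1, AP3 and GI were of all 3, and at each of them SWI3C stood above SWI3A, for instance at 97.5 against 40.1 at GI.

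The remaining lists held 1 gene each with summits of a single paralogue. Of 12 abscisic acid and cold genes 9 had a summit; SWI3C with SWI3D was found at ABI1 and ABI2, which encode phosphatases of the pathway, at ABI5, a transcription factor gene, and at RD29A, a stress-induced gene. The region at ABI2 also held a SWI3A peak. COR15A, a cold-induced gene, was of SWI3A alone (20.8 percentile), with a peak in 1 SWI3D library, and SNRK2.2, a kinase gene, of SWI3A with SWI3C. Of 9 gibberellin and jasmonate genes 8 had a summit; SWI3C with SWI3D was found at GA3OX1, SCL3, GAI, JAZ1 and MYC2. VSP2, a jasmonate-induced gene, was of SWI3D alone and RGA, a DELLA repressor gene, of SWI3A with SWI3C. Of 11 meristem and organ boundary genes 5 had a summit: CUC1, CUC3 and AS1 of SWI3C with SWI3D, CLV1 of all 3 and KNAT2 of SWI3A alone.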

How the data were processed

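The lists are from ChIP-seq with an antibody against GFP. The submitters' processing notes name fastp, Bowtie2, MACS2 2.0, deepTools, ChIPseeker and build TAIR10; roles, settings, control and pooling are not given in the sources used here, and peak names contain "RmDup". For each peak the authors deposited a score, a fold enrichment (linear ratio), −log10 p and −log10 q values, and the summit as an offset. Depth is unknown. Fold and −log10 q were used only within a list.

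The 12242 peaks of highest −log10 q per list were taken on 5 chromosomes and joined from 1 bp of overlap; SWI3D needed 2 of 3 libraries. Scripts ran in Python 3.11.15 (numpy 2.4.6, pandas 2.3.3, scipy 1.17.1, matplotlib 3.10.9). Class assignment was tested on simulated data. No test between paralogues was possible.

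Genes are from the RefSeq table of TAIR10.1, a later release than the lists' build, and none of its coordinates is printed. As a check, summits of the BSH list lay within 100 bp of a gene edge most often with the table unshifted, in 15 of 15 stretches of chromosome (35.8% to 45.4%, against 4.31% to 9.22% shifted by at least 500 bp). As the table has no strand, the planned promoter window was replaced by the nearest gene within 1000 bp. Promoter motifs were not analysed here.

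Named regions are the 3 of highest mean percentile per class (0 SWI3D libraries where SWI3D is absent, 3 where present) and the 5 largest SWI3A to SWI3C rank differences in regions of all 3, leaving out 8 regions among the 10 strongest peaks of lists of at least 6 lines; named genes are those at these regions and list members in a class of fewer than 3 paralogues. The members and lists were chosen with earlier results of these data known. The gene-edge measures, numbers of strongest peaks, groups by strength, weaker peaks, tagged genes, the paralogues in the regions of listed genes, the 6-line limit and the chromosome 2 stretch were chosen after seeing the data. One list member is not reported here by name. Columns left unmapped numbered 0.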

Additional observations from a re-analysis of the deposited data

Results flagged for a closer look

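All 5 SWI3 lists also hold peaks on the mitochondrial and plastid genomes, which the comparisons leave out: 139 in the SWI3A list, 125 in the SWI3C list and 102, 70 and 82 in SWI3D replicates 1 to 3. Of the 26 lists, 14 have none. No list from an untagged plant was used here, so these peaks have no control level to be set against.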

How the results depend on the processing

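Of 253 values over 22 results and 14 settings, 152 stayed within 1.5 times the count or within 1 SD between libraries. By list name, SWI3C with SWI3D shared the most peaks of the paralogue pairs in every setting. The cause of the moves was not tested. With the lines as labelled (4383 peaks per list), SWI3A alone had 675 regions, SWI3D alone 521, SWI3A with SWI3C 831, SWI3A with SWI3D 201, SWI3C with SWI3D 336 and all 3 together 2251. The shares of peaks were 75.1% (SWI3A with SWI3C), 56.6% (SWI3A with SWI3D), 61.7% (SWI3C with SWI3D) and 47.5% (between SWI3D libraries), the summit distances 35, 44, 41 and 49.3 bp and the rank coefficients 0.60, 0.46, 0.45 and 0.37; both coefficients with SWI3A had changed sign. MINU2 was in 45.7% of SWI3A alone, BRM in 48.5% of SWI3C alone and SYD in 44.3% of SWI3D alone.

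With a −log10 q of at least 10, which leaves unequal lists, SWI3A alone had 7769 regions, SWI3C alone 41, SWI3D alone 3408, SWI3A with SWI3C 159, SWI3A with SWI3D 2824 and SWI3C with SWI3D 1372. SWI3A and SWI3C then had a summit distance of 58 bp and a coefficient of 0.013, of changed sign, and SWI3C with SWI3D a share of 71.0%, 40.7 bp and 0.58; SWI3D libraries shared 81.3%. SWI3A shared 49.6% with SWI3C and 50.04% with SWI3D, so that order turned. The ATPase shares (MINU2 in SWI3A alone, BRM in SWI3C alone, SYD in SWI3D alone) were 74.1%, 59.8% and 77.9%. For these the ATPase lists were still cut at 12242 peaks.

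With all deposited peaks there were 149 regions of SWI3C alone, 861 of SWI3A with SWI3C, 2057 of SWI3A with SWI3D, 1637 of SWI3C with SWI3D and 8835 of all 3. SWI3A shared 67.3% with SWI3C (coefficient 0.010, of changed sign) and 64.4% with SWI3D. With the ATPase lists still cut at 12242 peaks, the ATPase shares were 56.3%, 65.8% and 48.8%. With 6121 peaks per list SWI3D alone had 1236 regions, SWI3A with SWI3C 550, SWI3A with SWI3D 183 and all 3 together 1088. SWI3A then shared 26.6% with SWI3C (58 bp, 0.039) and 20.6% with SWI3D (98 bp, 0.028), both coefficients of changed sign, and SWI3C with SWI3D had 39.3 bp and 0.58; MINU2 was in 78.0% and BRM in 69.0%.

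Where an overlap had to cover 50% of each peak, SWI3C alone had 2887 regions and SWI3D alone 3241. SWI3A shared 39.8% with SWI3C (coefficient 0.0042, of changed sign) and 34.1% with SWI3D (77.2 bp), SWI3C shared 62.2% with SWI3D, SWI3D libraries shared 79.6%, and the ATPase shares were 83.7%, 79.4% and 76.8%. Ranked by fold enrichment those shares were 81.0%, 74.2% and 58.2%, and with all deposited ATPase peaks 96.8%, 79.1% and 82.1%. BRM was in 70.9% of SWI3C alone without the recurrent regions and, an alternative chosen after seeing the data, in 76.3% without chromosome 2 from 3 to 4 Mb. With a SWI3D peak in at least 1 library SWI3C alone had 485 regions, SWI3D alone 3003 and SWI3A with SWI3D 922, with BRM in 74.4% and SYD in 56.3%. With all 3 libraries required, SWI3D alone had 1063 and SWI3A with SWI3D 228, with BRM in 74.2% and SYD in 76.8%.

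Leaving out 1 SWI3D library at a time, where both others must then have a peak, gave 1211 to 1701 regions of SWI3D alone (1231 without replicate 2 and 1211 without replicate 3) and 268 to 390 of SWI3A with SWI3D (268 and 272). Between SWI3D libraries the share was 84.8% to 92.7%, the summit distance 23 to 36 bp and the coefficient 0.81 to 0.95. BRM was in 72.2% to 74.8% of SWI3C alone and SYD in 66.2% to 75.2% of SWI3D alone.

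No paired analysis was possible because SWI3A and SWI3C have 1 library each and no result comes from a test. All 5 lists have organelle peaks, so the alternative within that set equals the main one. Unknown depth limits every class.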
